A study of Mus musculus with 6 samples.

Results

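Distal acetylation outside genes was examined in alveolar macrophages (AMs), which live in the air spaces of the lung and take up particles and surfactant. Acetylation of histone H3 at lysine 27 (H3K27ac) was profiled by HT-ChIPmentation, in which bead-bound chromatin is tagmented with the transposase Tn5. AMs were sorted from the bronchoalveolar lavage of 9-wk-old C57BL/6J mice labelled WT, with no other genotype, treatment or time point. The samples were 1 Active Motif library, whose title reads only H3, 2 Cell Signaling replicates and 3 inputs, which entered only through the authors' peak calling. Overlapping Cell Signaling peaks of both replicates were merged, and merged regions holding a peak of each were kept. Of these 29277 shared regions, 5119 (17.5%) were intergenic distal regions: their midpoint lay outside every gene body and 3 to 50 kb from the nearest transcription start site (TSS) of a protein-coding or lncRNA gene. They covered 8.69 Mb. The class was set by the midpoint alone, and 17 of these regions reached within 1 kb of a TSS. Of the other regions, 10749 were intronic distal, 621 were exonic distal, 1168 were intergenic beyond 50 kb and 11620 were proximal, within 3 kb of a TSS. The labels do not say that the Cell Signaling replicates came from separate animals, so their spread may be technical. The effect of the antibody cannot be told apart from that of any difference in sequencing run, sonication or depth between the Active Motif and Cell Signaling libraries. Which sonicator a library used is not given in the sources used here, and depth is unknown from the peak lists, so a region without a peak is one where none was called. All 8 AM marker genes checked had an acetylated promoter, a shared region within 1 kb of a TSS, as did 2 of 12 markers of other cells (Epcam of epithelium and S100a8 of granulocytes), beside 46.5% of all protein-coding genes.

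H3K27ac is laid down by the acetyltransferases p300 and CBP at active promoters and enhancers. Enhancers carry short sequence motifs bound by transcription factors, and in macrophages the lineage factor PU.1 opens many of them together with C/EBP and AP-1 factors. AMs receive GM-CSF and TGFβ from the alveolar niche, use the nuclear receptors PPARγ and RXR, and clear surfactant lipid. Intergenic enhancers act on promoters at a distance, and the nearest gene is a label, not a known target.

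The windows that follow show where recognition sequences of these factors occurred in the acetylated chromatin. Each is 200 bases centred on the strongest replicate 1 summit of an intergenic region, on the plus strand of mm10, taken from the RefSeq GRCm38 sequence. Capitals mark a motif match on either strand. The windows of Trpm1 (chr7:64141538-64141737) and Ankdd1a (chr9:65541761-65541960) were the 2 among the 12 strongest regions with an AP-1 match (TGANTCA), and both held 2 of them. AP-1 matches stood in 10.1% of intergenic windows and 7.78% of all shared windows.
Trpm1: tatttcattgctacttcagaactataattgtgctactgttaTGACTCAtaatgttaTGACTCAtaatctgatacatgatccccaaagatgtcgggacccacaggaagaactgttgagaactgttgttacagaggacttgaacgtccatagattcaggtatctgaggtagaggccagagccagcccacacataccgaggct
Ankdd1a: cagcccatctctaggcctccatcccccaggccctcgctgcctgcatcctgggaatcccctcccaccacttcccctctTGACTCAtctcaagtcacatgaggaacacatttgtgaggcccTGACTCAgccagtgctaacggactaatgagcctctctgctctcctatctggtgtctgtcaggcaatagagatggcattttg
The window of Ctsk (chr3:95511889-95512088), a gene the study names, held 1 AP-1 match. It also held a nuclear receptor core site (AGGTCA), present in 15.2% of intergenic and 12.9% of all shared windows.
Ctsk: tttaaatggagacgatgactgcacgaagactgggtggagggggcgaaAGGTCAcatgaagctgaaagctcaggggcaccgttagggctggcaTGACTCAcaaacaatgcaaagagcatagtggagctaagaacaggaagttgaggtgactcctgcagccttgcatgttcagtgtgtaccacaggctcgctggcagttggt
The Pparg window (chr6:115343828-115344027) held a nuclear receptor core site and a C/EBP match (TTGCNNAA, 11.6% of intergenic and 9.77% of all shared windows). The Mmp8 window (chr9:7552122-7552321) held a STAT5 match (TTCCNGGAA, 0.957% and 0.926%) and, on the minus strand, the only PU.1 match (GAGGAAGT, 5.12% and 4.18%) among the windows of the study's genes. The Mmp8 region was weak, with folds of 3.86 in replicate 1 and 8.54 in replicate 2 and no Active Motif peak. The medians of intergenic regions were 8.07 and 12.8.
Pparg: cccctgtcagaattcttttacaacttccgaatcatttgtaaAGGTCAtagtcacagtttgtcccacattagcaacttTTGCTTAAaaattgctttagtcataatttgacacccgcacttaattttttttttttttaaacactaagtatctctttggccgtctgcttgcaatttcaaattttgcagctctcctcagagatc
Mmp8: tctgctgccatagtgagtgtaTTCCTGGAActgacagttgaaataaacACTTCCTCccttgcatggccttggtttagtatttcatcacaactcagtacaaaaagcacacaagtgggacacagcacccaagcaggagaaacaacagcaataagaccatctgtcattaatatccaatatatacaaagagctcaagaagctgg
The window of the region with the highest replicate 1 fold among the 5119 (chr2:167777034-167777233) held none of the 21 motifs searched. Its nearest coding gene was Cebpb, 85.4 kb away, and its nearest TSS that of the lncRNA gene Gm14321. No match says only that these letters were not in the window.
Cebpb: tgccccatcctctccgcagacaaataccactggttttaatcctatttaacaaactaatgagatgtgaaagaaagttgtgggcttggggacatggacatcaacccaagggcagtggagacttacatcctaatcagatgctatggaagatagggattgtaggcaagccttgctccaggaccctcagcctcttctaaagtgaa

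The strongest intergenic regions lay near Cebpb, Abcg1, Sirpa, Chit1 and 8 other genes. Fold here is the enrichment over background that the authors' caller gave, taken from the strongest peak of each library in the region. The region 85.4 kb from Cebpb (chr2:167768685-167779910), which encodes a C/EBP transcription factor of macrophages, had a fold of 82.3 in Cell Signaling replicate 1, 53.5 in replicate 2 and 37.7 with Active Motif. Its nearest TSS was that of the lncRNA gene Gm14321, 3.17 kb from its midpoint. At a width of 11226 bp, the region reached across that TSS. A second Cebpb region, chr2:167719576-167750370, was the widest of all intergenic regions, at 30795 bp. In total 8 regions had Cebpb as their nearest coding gene, and 5 of them held an Active Motif peak. Upstream of Abcg1, a cholesterol exporter, a region of 7368 bp (chr17:31036811-31044178) had folds of 76.9, 57.7 and 26.5 in the same order of libraries. The other 3 Abcg1 regions were weaker, with folds of 5.77 to 11.1 in replicate 1 and 5.02 to 16.6 in replicate 2. Near Sirpa, an inhibitory receptor of phagocytes, the folds were 78.4, 56.8 and 28.9. The region near Chit1, a chitinase of macrophages, had folds of 78.8, 55.9 and 29.4.

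The remaining 8 of the 12 regions that ranked first by the mean of their ranks in both replicates were nearest to Ggta1, Tob1, Trpm1, Ap5s1, Ankdd1a, Mmp19, Pde4b and Prrt1. The Ap5s1 region, 10208 bp wide with its midpoint 3.42 kb from the Ap5s1 TSS, reached across that TSS. So did the Prrt1 region at the Prrt1 TSS, at a width of 19358 bp with its midpoint 6.65 kb away. Mmp19 is a matrix metalloproteinase and Pde4b degrades cAMP. Trpm1 is a cation channel known from the retina, and Prrt1 is known from synapses. Of the 12 nearest genes, Chit1, Trpm1 and Ankdd1a had no acetylated promoter. Folds of all 12 ranged from 68.0 to 82.3 in replicate 1, from 53.5 to 58.3 in replicate 2 and from 26.5 to 45.3 with Active Motif. In each of the 12 the Active Motif fold was the lowest of the 3 values and the replicate 1 fold the highest.

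**Figure D1:**
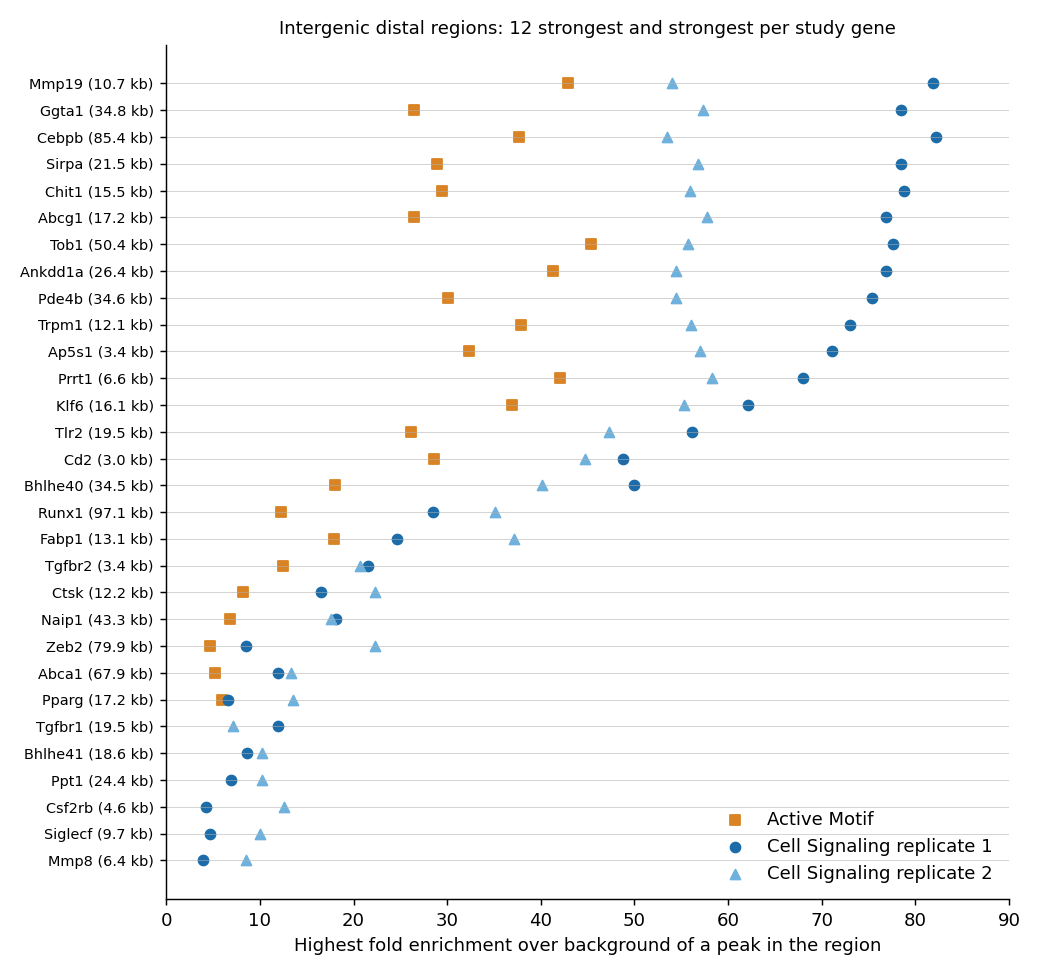
Highest fold enrichment of a peak (horizontal axis) in each library for the 12 strongest intergenic distal regions and for the strongest one nearest to each gene the study names, with the kb to the coding TSS in brackets; a missing square means no Active Motif peak. Replicate 1 reached 82.3 at Cebpb, and the region plotted for Tgfbr1, Bhlhe41, Ppt1, Csf2rb, Siglecf and Mmp8 held no Active Motif peak. Those plotted for Cebpb, Ap5s1, Prrt1 and Cd2 reached across a TSS.

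Most intergenic regions were far weaker than these. For intergenic regions the fold had a median of 8.07 in replicate 1 (quartiles 5.38 and 16.9, range 2.49 to 82.3) and 12.8 in replicate 2 (7.44 and 23.3, range 2.45 to 58.3). The median Active Motif fold was 7.57 in the 2712 regions with such a peak. Intronic distal regions had medians of 7.30, 10.9 and 7.36, regions beyond 50 kb 7.71, 11.7 and 7.25, and proximal regions 15.8, 23.2 and 10.2, in the same order. The median width was 1205 bp for intergenic regions, against 1244 bp for intronic, 1123 bp for intergenic beyond 50 kb and 1617.5 bp for proximal regions. After Cebpb, the widest intergenic regions lay near Ctsd, a lysosomal protease (25904 bp), Zfp36l2, an mRNA decay factor (23417 bp), and the chemokine receptor gene Ccr1 (22278 bp). The Ctsd region, with its midpoint 5.22 kb from the Ctsd TSS, reached across that TSS. Replicate 1 split a region into several peaks more often than replicate 2: it had 1 peak in 68.0% of intergenic regions, and replicate 2 had 1 in 95.8%. Neighbouring replicate 1 summits in the same region lay a median of 647 bp apart (quartiles 391 and 1195 bp, 2453 pairs).

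Both replicates ranked the intergenic regions alike. Spearman's rho of the fold was 0.855 over 5119 regions, 0.842 over intronic distal regions and 0.896 over all shared regions, as a description across regions of the same 2 libraries. The strongest summits lay a median of 113 bp apart, and within 200 bp of each other in 70.9% of regions. Wider regions had a higher replicate 2 fold (rho 0.811). Where an Active Motif peak was present, its fold followed that of replicate 2 with a rho of 0.778 (2712 regions). Taken from replicate 2 peaks alone, 8624 regions met the distance rule, with a median width of 550 bp, and from replicate 1 peaks alone 9649, with a median of 250 bp. Requiring a peak of each replicate to cover 50% of the other left 3184 regions.

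Intergenic regions thinned out with distance from the TSS. Per Mb of intergenic sequence at that distance there were 14.3 regions at 3 to 5 kb, 12.1 at 5 to 10 kb, 10.2 at 10 to 20 kb, 7.81 at 20 to 30 kb, 6.14 at 30 to 40 kb and 5.34 at 40 to 50 kb. Intronic distal regions were denser in intronic sequence at each of the 6 distances, at 18.5, 17.3, 14.9, 13.2, 11.2 and 9.08 per Mb. Strength did not thin out in the same way. The median replicate 2 fold of intergenic regions lay between 11.8 and 13.6 at every distance, and the median width between 1154.5 and 1274.5 bp. The share with an Active Motif peak lay between 50.3% and 56.3%, and the 95% Wilson intervals of all 6 distances overlapped (lowest bound 46.3%, highest 60.4%). These intervals cover counting error over regions only, since regions are not replicates.

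**Figure D2:**
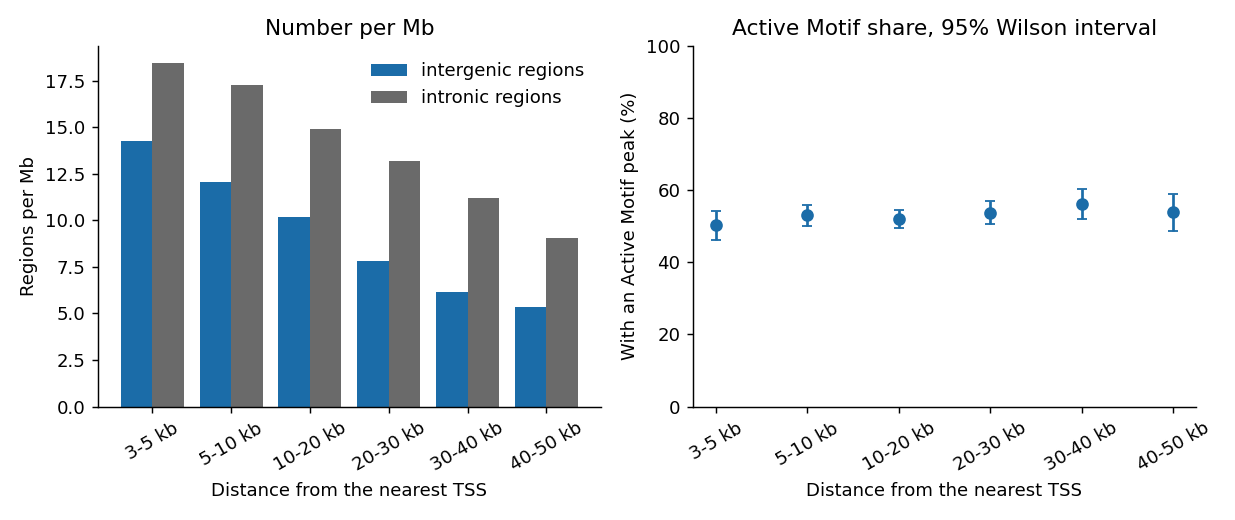
Left, intergenic (blue) and intronic (grey) distal regions per Mb of sequence of their own class, by distance from the nearest TSS. Right, the share of intergenic regions with an Active Motif peak (%), with 95% Wilson intervals. The density was 14.3 per Mb at 3 to 5 kb and 5.34 at 40 to 50 kb, while the share stayed between 50.3% and 56.3%.

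Of the intergenic regions, 3586 (70.1%) lay upstream of their nearest TSS and 1533 downstream, out of 372 Mb and 192 Mb of such sequence. Per Mb there were 9.65 upstream and 7.996 downstream, and at 10 to 20 kb from the TSS 10.6 upstream and 9.31 downstream. Between divergent genes there were 9.61 per Mb, between genes in tandem 8.94 and between convergent genes 8.89. Among chromosomes the density was highest on 19 (14.7 per Mb), 11 (13.2) and 10 (12.2) and lowest on X (3.24), with 9.09 over all. The nearest TSS belonged to a lncRNA gene for 1642 regions (32.1%), and 820 lncRNA genes were involved. The share was 24.7% at 3 to 5 kb and 37.6% at 40 to 50 kb. Gm45805 had 11 such regions, Gm32515, beside Ado, and Gm19510, beside the pseudokinase gene Trib1, had 10 each, and 0610040F04Rik, beside Bhlhe40, had 9.

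Gaps between genes held 0 to 13 intergenic regions. Of 19072 gaps with eligible sequence, 2593 (13.6%) held at least 1 intergenic region, and the 188 gaps with 5 or more held 1182 regions (23.1%). The fullest, of 64.0 kb between 1700020N01Rik and Gm5420 on chromosome 10, held 13, with folds of 3.12 to 71.1 in replicate 1 and 4.14 to 48.9 in replicate 2. The gap between Pik3ap1, an adaptor of PI3K signalling, and Lcor, a nuclear receptor corepressor, held 12, of which 8 had an Active Motif peak. That between the chemokine receptor genes Xcr1 and Ccr1 held 10, covering 29.6 kb of 100.1 kb. Between Bhlhe40 and Arl8b there were 10, with a replicate 1 fold of 3.22 to 49.97. The 11 regions between Dhx40 and Ypel2 were short, 9.72 kb in all, and had a median replicate 1 fold of 19.6. By nearest coding gene, Gm5426 had 22 regions, Ado 18 and Gadd45g, a stress response gene, 16. Tmsb4x, which encodes the actin-binding thymosin β4, had 14 of the 125 on the X chromosome. Bhlhe40, Irf2bp2, Trib1, Zfp703 and 1700020N01Rik had 13 each, Tnfaip3 had 12, and 8 genes had 11, among them Adrb1, Fos and Klf6.

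The Active Motif antibody marked 2712 of the 5119 intergenic regions, or 53.0% (95% Wilson interval 51.6 to 54.3), against 61.5% of all shared regions. The share was 50.8% in intronic distal regions, a difference of 2.15 percentage points (95% Newcombe interval 0.483 to 3.81). It was 49.8% beyond 50 kb (difference 3.15, −0.0234 to 6.32, so that no difference was detectable) and 76.9% in proximal regions (difference −23.9, −25.5 to −22.3). When regions were taken from the peaks of 1 replicate alone, the intergenic share was 32.1% from either replicate, and the difference from regions beyond 50 kb was detectable, at 4.19 (2.02 to 6.30) without replicate 1 and 2.95 (0.844 to 5.003) without replicate 2. Regions with an Active Motif peak were wider and stronger: their median width was 1849.5 bp, against 715 bp without one. Median folds in replicates 1 and 2 were 16.1 and 22.3 with an Active Motif peak, against 5.38 and 7.44 without one. Median GC content was 45.5% with and without. With regions of both classes sorted into 10 groups by the q-value of replicate 2, the difference from intronic regions turned to −3.24 percentage points (−4.30 to −2.18), that from regions beyond 50 kb was 0.101 (−1.92 to 2.12), and that from proximal regions was −2.93 (−4.08 to −1.78). The gap to intronic regions was widest in groups 5 and 6. In group 5 the share was 29.7% of intergenic and 40.04% of intronic regions, and in group 6 it was 51.4% and 62.4%. In groups 9 and 10 every intergenic region had an Active Motif peak. Within 10 groups of width the difference was 3.72 from intronic regions (2.54 to 4.90), 0.538 from regions beyond 50 kb (−1.76 to 2.83) and −12.3 from proximal regions (−13.5 to −11.1).

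**Figure D3:**
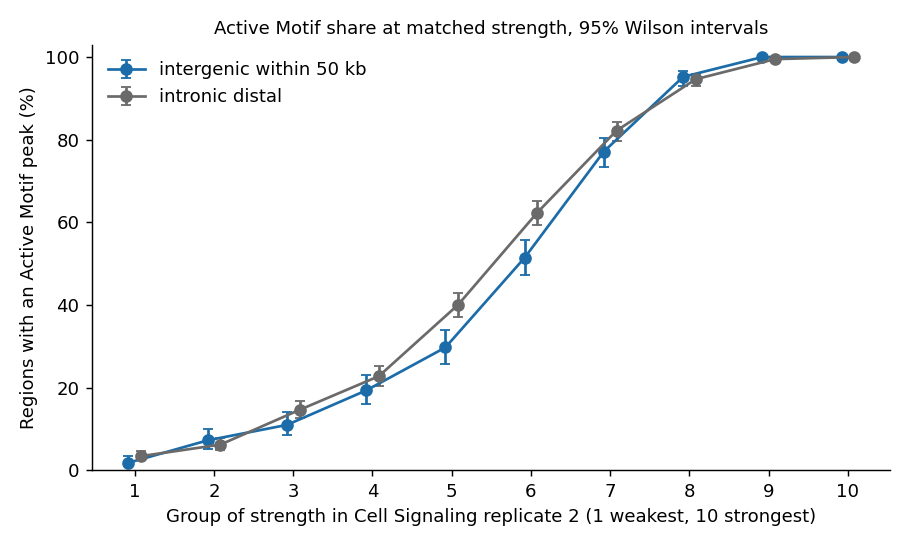
Share of intergenic (blue) and intronic (grey) distal regions with an Active Motif peak (%, 95% Wilson intervals), by group of strength in Cell Signaling replicate 2 from 1 (weakest) to 10 (strongest). The intergenic share in the weakest group was 1.80% and in the strongest 100%, and its interval lay below the intronic one in groups 5 and 6.

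The strongest intergenic regions without an Active Motif peak lay near Egr3, an immediate early transcription factor gene (chr14:70065401-70067014, fold 24.2 in replicate 1 and 24.9 in replicate 2), and near Gab1, an adaptor of growth factor receptors (22.3 and 24.3). The next were nearest to Tmem86a, Kpna2, Dhx40, Fam43a, Raph1, Lyst, Ifngr1 and 5730507C01Rik. Their replicate 1 folds ranged from 11.5 to 19.6. Ifngr1 encodes a chain of the interferon γ receptor and Lyst a regulator of lysosome size. Of the 10 regions nearest to Ifngr1, 3 held an Active Motif peak. The Dhx40 region was only 214 bp wide, and the other 9 were 1325 to 2321 bp wide.

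The nearest protein-coding gene had an acetylated promoter for 4031 of the 5119 intergenic regions, 78.7% (77.6 to 79.8). This share counts regions, so a gene with many regions weighs more. With each gene counted once, 1861 of the 2528 nearest coding genes had an acetylated promoter, beside 46.5% of all protein-coding genes. Over regions, the share was 84.0% for intronic distal regions (difference −5.22, −6.55 to −3.91). It was 68.4% beyond 50 kb (difference 10.3, 7.497 to 13.3). Both differences kept their sign under every alternative that was run. When a lncRNA gene had the nearest TSS, its own promoter was acetylated for 39.8% of regions, against 78.8% when the nearest TSS was that of a protein-coding gene. Gm5426, the coding gene with the most intergenic regions, and 1700020N01Rik, with 13, had no acetylated promoter, whereas the promoters of Ado, Gadd45g, Tmsb4x, Bhlhe40 and Tnfaip3 were acetylated.

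Summit windows of intergenic regions held macrophage motifs, and several others, more often than flanking sequence did. The PU.1 sequence GAGGAAGT stood in 262 windows, 5.12% (4.55 to 5.76), against 1.20% of 8023 windows placed 5 kb away outside any peak, 4.28 times as often. For AP-1 (TGANTCA) the shares were 10.1% and 6.05%, and for C/EBP (TTGCNNAA) 11.6% and 7.86%. The nuclear receptor core site AGGTCA stood in 15.2% against 12.7%, while the direct repeats DR1 (0.176% against 0.112%) and DR4 (0.313% against 0.224%) were too rare to separate from flanks. Other shares above the flanks were those of NF-kB (GGGANTTCC, 1.13% against 0.561%), RBPJ (GTGGGAA, 4.63% against 3.60%), RUNX (TGTGGTT, 6.58% against 5.45%), STAT5 (TTCCNGGAA, 0.957% against 0.611%), IRF (GAAANNGAA, 9.03% against 7.503%) and MAF (TGCTGAC, 3.42% against 2.68%). The same held for the E-boxes CACGTG, bound by BHLHE40 and BHLHE41 (3.34% against 2.51%), and TCACGTG, bound by MITF and TFE factors (1.62% against 0.872%), which contains it. It also held for CRE (TGACGTCA, 0.391% against 0.125%), SP (GGGCGGGG, 1.52% against 0.710%) and CTCF (0.430% against 0.150%). As ratios to flanks these were 3.13, 2.14 and 2.87, above those of AP-1 (1.67) and C/EBP (1.48). No difference was detectable for SMAD (GTCTAGAC), KLF (GGGNGTGG) or the sequence AGATAAG bound by GATA factors, and EGR (GCGTGGGCG) stood in 0 of 5119 windows, with an upper bound of 0.0750%.

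The interval of the difference from flanks lay above 0 for 15 of the 21 motifs and below 0 for none. The number depended on the position used: it was 13 around region midpoints and 5 around the summits of replicate 2. PU.1 (difference 1.26 percentage points, 0.793 to 1.77, against 3.92, 3.29 to 4.60 at replicate 1 summits) and AP-1 (1.51, 0.637 to 2.41) stayed above 0. C/EBP (0.265, −0.667 to 1.22), the nuclear receptor core site (0.588, −0.605 to 1.80) and RUNX (−0.185, −0.961 to 0.617) did not. Median GC content was 45.5% in intergenic windows and 45.0% in flanks, and the soft-masked, repetitive share of bases averaged 20.2% and 34.2%; their part in the motif shares was not tested.

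Between classes of distal regions the motif shares were close. Against intronic distal regions the interval lay above 0 for KLF (6.31% and 5.35%), SP (1.52% and 0.661%) and CTCF (0.430% and 0.195%), and below 0 for none. Against regions beyond 50 kb it lay above 0 for CACGTG (3.34% and 1.88%) and KLF (6.31% and 4.37%). Intergenic windows also held more CpGs, on average 2.70, than intronic windows (2.31) and those beyond 50 kb (2.24), and proximal windows held 9.60. CTCF, the insulator factor, was the motif that set regions with and without an Active Motif peak apart in the other direction. It stood in 0.111% of those with a peak and 0.789% of those without (difference −0.679, −1.13 to −0.324). The SP site was more frequent with a peak (1.99% and 0.997%), as was CRE (0.627% and 0.125%). The strength of these regions differs too, and its part was not tested. PU.1 (5.35% and 4.86%), C/EBP (11.6% both) and AP-1 (10.3% and 9.85%) did not differ detectably.

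**Figure D4:**
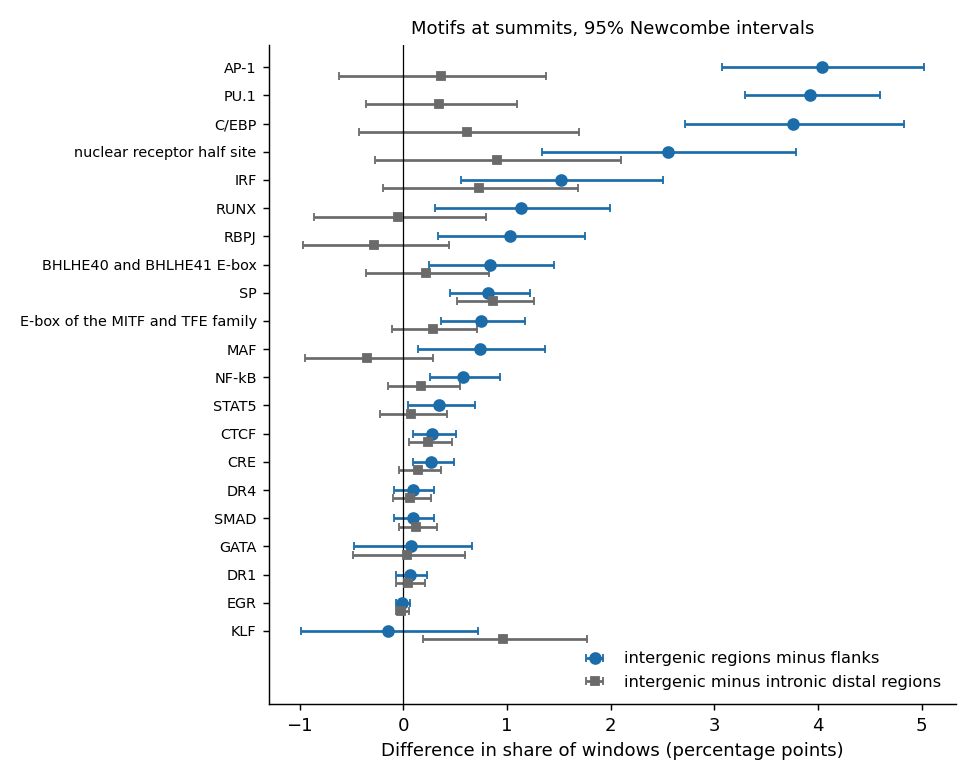
Difference in the share of 200 bp summit windows holding each of 21 motifs (percentage points, 95% Newcombe intervals), for intergenic regions minus flanking windows (blue) and minus intronic distal regions (grey). PU.1, AP-1 and C/EBP lie 3.76 to 4.04 points above the flanks, and most grey intervals span 0.

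Genes of AM identity often had an intergenic region nearest to them. The nearest coding TSS could lie at any distance, and lay beyond 50 kb for 856 intergenic regions. Of 32 AM core genes, 23 had at least 1, 73 regions in all and 2.28 per gene. Among all protein-coding genes 11.6% had one, with a mean of 0.235, and among those with an acetylated promoter 18.4%, with a mean of 0.399. All 32 AM core genes had an acetylated promoter, and the gene lists were chosen with earlier results of these data known. Tlr2, a receptor for bacterial lipoproteins, and Ear2, an eosinophil-associated ribonuclease made by AMs, had 9 each. The strongest Tlr2 region, 19.5 kb upstream, had folds of 56.1 and 47.3 in replicates 1 and 2 and 26.1 with Active Motif, the order kept for the genes that follow. Plet1 and Marco, a scavenger receptor, had 8 each, and Lpl, lipoprotein lipase, had 7. The strongest Plet1 region reached folds of 74.2, 52.6 and 31.7 and that of Marco 34.1, 40.3 and 16.2. Siglecf, the sialic acid receptor used to gate AMs, had 2 weak regions, with highest folds of 4.69 and 10.01 in the replicates, and 1 of them held an Active Motif peak (4.89). The AM core genes with none were Itgax, Ear1, Cidec, Cdh1, Ucp3, Cd69, Slc39a2, Olr1 and Il18.

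Of 34 AM regulators, 20 (58.8%) had an intergenic region (81 in all, 2.38 per gene). The share was 11.6% among all protein-coding genes and 18.4% among those with an acetylated promoter. Bhlhe40, a repressor that sustains AM self-renewal together with Bhlhe41, had 13, and Bhlhe41 had 5, none of which held an Active Motif peak. Klf6 had 11, and its strongest had folds of 62.1, 55.3 and 36.9. Cebpb had 8, the stress factor Atf3 7, and Cebpa, Fosl2 and Id2 5 each. Pparg, the lipid-sensing receptor that specifies AMs, had 1, 17.2 kb upstream (chr6:115343098-115344489), with folds of 6.53, 13.5 and 5.97, below the median of all intergenic regions in replicate 1 (8.07) and above it in replicate 2 (12.8). Runx1 had 2, the strongest 97.1 kb from its TSS (28.4, 35.1 and 12.3). Zeb2, which maintains macrophage identity, had 1, at 79.9 kb (8.46, 22.3 and 4.69). The farthest regions of Klf6 and Id2 lay 441 and 187 kb from their TSS. Spi1, Rxra, Rxrb, Rbpj, Smad3, Smad4, Stat5a and Stat5b, the genes of factors acting with RXR or downstream of niche signals, were among the 14 with none.

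Of 16 niche signal receptor genes, 10 (62.5%) had an intergenic region, beside 11.6% of all protein-coding genes and 18.4% of those with an acetylated promoter. Ifngr1 had 10 and Il10ra, a chain of the interleukin-10 receptor, had 9, of which 7 held an Active Motif peak. Of the receptors for TGFβ, Tgfbr2 had 4 (strongest 21.5, 20.7 and 12.4) and Tgfbr1 had 2, without an Active Motif peak. The farthest Tgfbr2 region lay 201 kb from its TSS. Of the GM-CSF receptor chains, Csf2rb had 2, with highest folds of 7.30 and 12.6 in the replicates and an Active Motif peak in 1 of them (5.997), and Csf2ra had 1 (32.3, 35.1 and 7.19). Notch2 had 4 (strongest 35.1, 24.8 and 15.9), of which 3 held an Active Motif peak. Notch1 had 2, with highest folds of only 3.46 and 5.61 in the replicates and no Active Motif peak. Csf2rb2, Csf1r, Il1r1, Il1rl1, Il18r1 and Il4ra had none.

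Of 27 lipid metabolism genes, 13 (48.1%) had an intergenic region, 34 in all. Among all protein-coding genes the share was 11.6%, and among those with an acetylated promoter 18.4%. Plin2, which coats lipid droplets, had 6, and its strongest (chr4:86685459-86693947) had folds of 68.0, 53.1 and 42.5. Abcg1, the fatty acid-binding protein gene Fabp5 and Ch25h, which makes 25-hydroxycholesterol, had 4 each, and the cholesterol exporter gene Abca1 had 3. Fabp1 had 2, with strongest folds of 24.6, 37.2 and 17.9. Of 22 lysosome genes 12 (54.5%) had an intergenic region, 16 in all, led by Psap with 4. An Active Motif peak was held by 13 of the 16 and by 16 of the 34 lipid metabolism regions, beside 53.0% of all intergenic regions. Of 20 apoptosis genes 8 had one, led by Mcl1, an inhibitor of apoptosis, with 5, and of 19 cell cycle genes 4 had one (Ccnd2, Ccne1, Cdk6 and E2f1), of which Ccnd2 had 4.

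In these cells from WT mice, 12 of 19 inducible inflammatory genes (63.2%) had an intergenic region. The share was 11.6% of all protein-coding genes and 18.4% of those with an acetylated promoter. Of the 47 regions of the list, 32 (68.1%) held an Active Motif peak, beside 53.0% of all intergenic regions. Other lists lay on both sides of that share, among them housekeeping genes (88.9%), AM regulators (59.3%), niche signal receptors (47.4%) and apoptosis genes (35.3%). The strength of regions was not matched between lists. Tnfaip3, which restrains NF-kB signalling, had 12. Its strongest region (chr10:19060409-19065398) had folds of 71.5, 52.8 and 46.0, and 10 of the 12 held an Active Motif peak. Il1a and Il1b had 7 each, with strongest folds of 45.7 and 39.7 (Il1a) and 65.0 and 46.5 (Il1b) in the replicates, and Nfkbia had 6. A region near the chemokine gene Cxcl2 had folds of 56.1, 28.2 and 46.8, the last being the highest Active Motif fold among the 5119 regions. It was 8898 bp wide with its midpoint 3.34 kb from the Cxcl2 TSS, so it reached across that TSS. Tnf, Il12b, Cxcl10, Ccl2, Ccl3, Nos2 and Ptgs2 had none.

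The regions of one gene differed widely in strength at the loci that follow. At Tlr2, 7 of the 9 regions lay upstream of the nearest TSS. The 3 given first had folds above the medians of intergenic regions in every library (8.07, 12.8 and 7.57). The region 19.5 kb upstream was followed at 34.0 kb by one with folds of 21.2, 29.6 and 8.82 in replicate 1, replicate 2 and Active Motif, and at 44.7 kb by one with 24.5, 36.4 and 15.8. Between them, 2 narrow regions of 644 and 645 bp had replicate folds of 4.27 and 10.7 and of 5.38 and 3.77, and no Active Motif peak. Plet1 had a run of 8 regions between 7.75 and 42.1 kb upstream. Its 3 strongest, at 14.1, 23.3 and 31.8 kb, had folds of 74.2, 52.6 and 31.7, of 42.7, 37.2 and 12.8, and of 34.2, 41.9 and 16.1, and the other 5 had a replicate 1 fold of 4.23 to 13.5. At Marco 5 of 8 regions held no Active Motif peak, with replicate 1 folds of 3.36 to 5.15. The 3 with one had replicate 1 folds of 19.99 to 34.1.

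Regions of Bhlhe40, Klf6, Il1a and Il1b also differed in strength. At Bhlhe40, the region with the highest replicate 1 fold, 72.6, had 26.5 in replicate 2 and 22.9 with Active Motif (chr6:108565592-108571952), so the replicates ranked it differently from the region 34.5 kb from the gene, with 49.97, 40.1 and 18.0. Of its 13 regions, 5 were 147 to 344 bp wide, with replicate 1 folds of 3.22 to 4.997. At Klf6 the strongest region, with 62.1, 55.3 and 36.9, stood apart from the other 10, which had replicate 1 folds of 3.84 to 23.8 and replicate 2 folds of 4.14 to 27.1. The 7 Il1a regions formed a run 4.46 to 28.5 kb upstream, and 6 held an Active Motif peak, with folds of 5.38 to 17.5. Those of Il1b had replicate 1 folds of 4.61 to 65.0, and the 3 without an Active Motif peak were the 3 weakest in replicate 1.

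Genes of other cells had a smaller share with an intergenic region than AM core genes, and most of these lists lay above the 11.6% of all protein-coding genes. The share was 26.9% for other macrophages and monocytes, 21.4% for lymphocytes, 17.6% for endothelium and stroma, 15.4% for granulocytes, 5.26% for lung epithelium and 4.17% for other organs. These lists differed from AM core genes in promoter state too. In the same order, 7 of 26, 2 of 14, 3 of 17, 2 of 13, 3 of 19 and 1 of 24 genes had an acetylated promoter, against all 32 AM core genes. Among coding genes without an acetylated promoter, 5.73% had an intergenic region. The part of promoter state was not tested. Of 26 genes of other macrophages and monocytes 7 had an intergenic region, led by Ccr2, F13a1, Vsig4 and Id3 with 4 each, and 19 had none. The strongest Ccr2 region, 33.8 kb upstream, had folds of 29.1, 45.6 and 19.6. Among lung epithelial genes 1 of 19 had any, Epcam, with 6, of which 5 held an Active Motif peak (highest folds 16.9 and 26.7 in the replicates). Of 17 endothelial and stromal genes 3 had one (Cdh5, Vwf and Acta2), of 14 lymphocyte genes 3 (Cd4, Klrb1c and Ncr1) and of 13 granulocyte genes 2 (Csf3r and Ccr3). The 2 Cdh5 regions lay 513 and 524 kb from its TSS. Vwf had 4 regions, with highest folds of 68.0, 51.5 and 42.0 in replicate 1, replicate 2 and Active Motif. Acta2 had 3, with highest folds of 44.3, 50.7 and 19.6. The promoters of Vwf and Acta2 were acetylated. Of 24 genes of other organs only Alb, the albumin gene, had one, 46.5 kb from its TSS, with folds of 36.1, 44.5 and 21.7. Of 19 housekeeping genes, all with an acetylated promoter, 4 had one (21.1%, beside 18.4% of all coding genes with an acetylated promoter), Actb with 3 regions among them. Among 30 genes the study names, 20 had one, with 79 regions in all; this list overlaps the others and was chosen by the study with these libraries at hand.

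**Figure D5:**
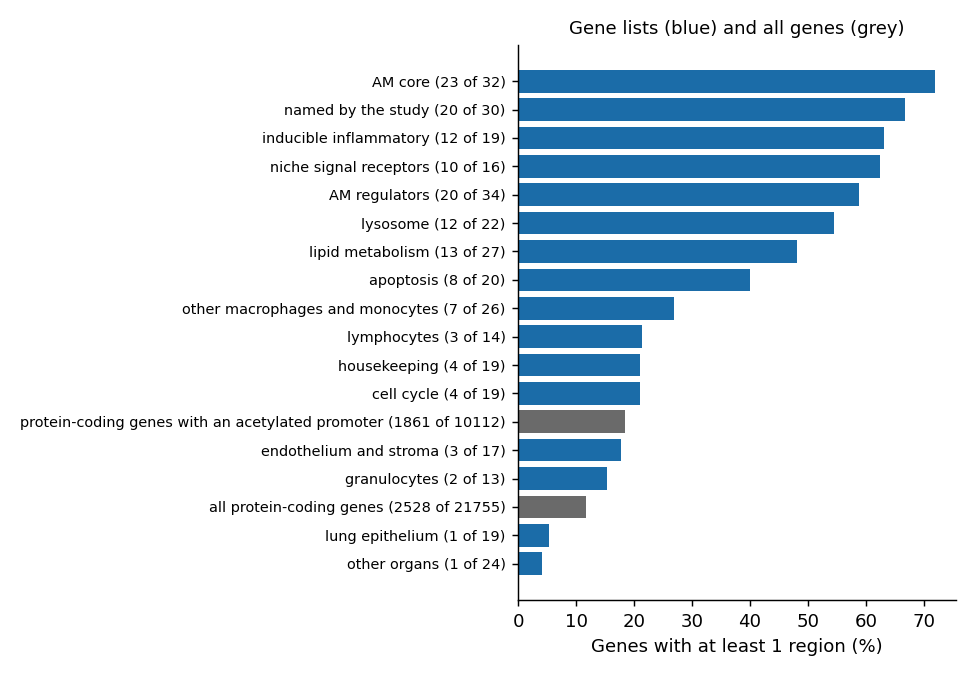
Share of the genes of each list that are the nearest coding gene of at least 1 intergenic distal region (%, horizontal axis), with counts in brackets, beside all protein-coding genes and those with an acetylated promoter (grey). AM core genes reached 71.9%, all protein-coding genes 11.6%. The lists were chosen with earlier results of these data known.

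The regions next to the distance limits were as follows. Just beyond the 3 kb limit, and so included, a region 3004 bp from the TSS of Atp13a2 had folds of 5.38 and 3.57 in the replicates, and one 3008 bp from Gadd45b had 5.38 and 10.1. At 2999 bp, regions near Abcg1 (2.75 and 8.54) and Prss46 (6.53 and 8.58) counted as proximal. Just within the 50 kb limit, a region 49963 bp from Gm26651 had folds of 18.5 and 29.98 and one 49967 bp from Map3k8 had 19.2 and 30.4. Just beyond it, regions 50078 bp from Gm12506 (5.38 and 4.04) and 50225 bp from Irf2bpl (45.4 and 45.4) were left out.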

How the data were processed

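H3K27ac peak lists of 3 libraries were analysed on 20 chromosomes. Per the study's methods and the submitters' processing notes, the authors trimmed reads with Cutadapt, aligned them to mm10 with Bowtie2, removed duplicates, and called peaks with MACS3 against inputs at a q-value of 0.05 (reads demultiplexed with bcl2fastq 2.20.0.422 in the Cell Signaling samples). Peaks were called per library: 56175 and 49139 in the Cell Signaling replicates and 36364 in the Active Motif library. The authors deposited for each peak a position, a summit, a score, a fold enrichment over background (a ratio), and p-value and q-value, each as −log10. Weak sites are called more readily in a deeper library, and the lists hold no read counts, so depth is unknown here. The smallest −log10 q was 1.31.

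Overlap needed 1 bp. Genes came from GENCODE vM21 basic (21755 protein-coding and 9603 lncRNA genes, 52482 TSS positions), and sequence from RefSeq GRCm38, the assembly of mm10. Eligible sequence was sampled every 10 bp. Each region was given the coding gene with the closest TSS, at any distance. Motif searches covered both strands and 21 consensus sequences in 200 bp windows; flanking windows lay 5 kb from a summit. Gene lists numbered 18, with 325 genes, all matched, the 8 AM and 12 other-cell markers among them. Members, lists and motifs were chosen with earlier results of these data known. No test over samples was possible with 1 Active Motif library, so shares carry 95% Wilson and differences 95% Newcombe intervals (normal intervals within groups of strength or width), which cover counting error over regions only. Named genes were the nearest coding genes of the 12 strongest regions, those with the most regions, the leading genes of each list and those the study names, and the 10 strongest regions without an Active Motif peak. Further genes (Pik3ap1, Lcor, Xcr1, Arl8b, Ypel2, Gm5420, the widest regions, and list genes with no region) were named after their values were seen. Scripts used Python 3.11.15, numpy 2.4.6, pandas 2.3.3 and matplotlib 3.10.9 and were tested on simulated data. A few genes and sequences that met these rules are not reported here.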

Additional observations from a re-analysis of the deposited data

How the results depend on the processing

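No paired analysis was possible because inputs, which share numbers with the Cell Signaling replicates, entered only through the authors' peak calling and no model was fitted over samples. Of the recomputed values, 101 kept their direction and their side of 0 or moved less than their spread, 22 moved further, 9 newly passed 0, 7 no longer did and 6 reversed. The Active Motif difference from intronic regions turned to −0.321 percentage points with a Cell Signaling −log10 q of at least 5, −0.484 with 50% mutual overlap and −3.24 within strength groups, and was 0.779 with a 1 kb proximal limit. Its difference from regions beyond 50 kb passed 0 at 3.48, 3.95 and 3.27 under the stricter q, the 50% overlap and the 1 kb limit, 3.59 with a 10 kb limit, 2.32 with protein-coding genes alone, 3.28 by replicate 2 summits and 3.37 with Active Motif peaks of −log10 q of at least 5, which marked 42.4% of intergenic regions. With the stricter q the Active Motif share was 65.2%, the median folds 10.8 and 16.2 in replicates 1 and 2, and the width 1442.5 bp. With the 50% overlap there were 3184 regions, with 70.1% marked, 67.5% near an acetylated promoter, median folds of 12.96 and 18.4 and a width of 1507 bp. A 10 kb limit left 3362. Leaving out 1 Cell Signaling replicate gave 8624 to 9649 regions, 32.07% to 32.1% marked, a difference beyond 50 kb of 2.95 to 4.19, 78.7% to 80.6% near an acetylated promoter, and median widths of 250 to 550 bp. The median fold was then 6.89 in replicate 2 alone and 5.38 in replicate 1 alone. Replicate 2 summits left 5 motifs above flanks and turned DR1 (−0.0341) and RUNX (−0.185). Windows of 100 bp turned DR1 (−0.0102). The cause of these changes was not tested. Small shares, such as those of DR1, rest on few windows.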
